A study of Mus musculus with 8 samples.

Results

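The genes described here are the 7 secreted class 3 semaphorins, Sema3a to Sema3g, and Plxnd1, which encodes the receptor Plexin-D1. Every probe that the platform annotation pairs with one of these 8 symbols was taken, which gave 14 of the 41174 gene probes on the array. Sema3e had 4 probes, Sema3a, Sema3c and Sema3f had 2 each, and Sema3b, Sema3d, Sema3g and Plxnd1 had 1 each. Expression was measured in sorted cells of the embryonic mouse cortex (C57/BL6) in which the forkhead transcription factor FoxO6 had been knocked down in utero. Embryos received siFoxO6-2 or siFoxO6-3, different siRNAs against Foxo6, or a non-targeting scrambled siRNA, always together with a GFP expression vector, at E14.5 of embryonic development, and sorted cells were taken at E16.5. Each siRNA was represented by 4 pools of cortices, each hybridised on its own two-colour array against the same single pool of scrambled cells, which made 8 arrays. Dyes were swapped within each siRNA, the siRNA pool being in Cy5 for replicates 2 and 4 and in Cy3 for the other two. Electroporation reaches only part of the cells of a cortex, each pool mixes several embryos, and the single scrambled pool gives no spread of its own, so the p-values below measure the spread between the siRNA pools only.

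Class 3 semaphorins are secreted guidance proteins that steer axons, dendrites and migrating neurons of the developing cortex. Most of them act through a neuropilin, which binds the ligand, and a plexin of the A family, which signals into the cell. Sema3e is the exception, because it binds Plexin-D1 directly, and that pair guides axons as well as growing blood vessels. The study's title places the plexin Plxna4 downstream of FoxO6, so the ligands of that receptor family and the remaining class 3 receptor are measured here beside it.

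The siRNAs are shown because they define the groups that every value below compares. Both are given from 5′ to 3′ as the labels list them, with n for an unspecified base.
siFoxO6-2: nnacaugccagugacgacuac
siFoxO6-3: nnccaucagccuuaugacgcu
Foxo6 itself was lower in the siRNA channel on 8 of 8 arrays after normalization, at mean log2 ratios of -0.95 ± 0.41 for siFoxO6-2 and -1.65 ± 0.49 for siFoxO6-3 (SD, n = 4 each). The fitted value with both siRNAs together was -1.30 (limma, adjusted p = 0.00133). The least lowered array was siFoxO6-2 replicate 3, at -0.40, and that array also followed the others poorly, with a median correlation across probes of 0.29 against 0.43 to 0.70 on 6 of the other arrays. The remaining array, siFoxO6-3 replicate 4, had a median correlation of 0.19 and the dimmest siRNA channel. Results that rest on these arrays are given with and without them.

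With all 8 arrays, none of the 14 probes passed the test, which was limma's moderated test over all gene probes with Benjamini-Hochberg adjustment and a threshold of 0.05. That held for both siRNAs together, for each siRNA alone and for the difference between the siRNAs. Of all 41174 gene probes, 11.8% passed with both siRNAs together, 7.86% with siFoxO6-2, 0.658% with siFoxO6-3 and 0% for the difference, for which 2789 probes had an unadjusted p under 0.05. At an unadjusted p under 0.05, 5 of the 14 probes (35.7%) passed with both siRNAs together, beside 26.2% of all probes. The corresponding counts of the 14 were 2 with siFoxO6-2, 3 with siFoxO6-3 and 1 for the difference. Of all 41174 probes they were 9164, 5790 and 2789, so the 14 probes did not stand out by these counts. The fitted log2 ratios of the 14 probes ran from -0.09 to 0.29 with both siRNAs together, 9 above and 5 below 0, with a median of 0.017 beside 0.003 for all probes. The lowest adjusted p among them was 0.0675, for the second Sema3a probe. Sema3a therefore stood at the upper end of the range and is described first.

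**Figure D1:**
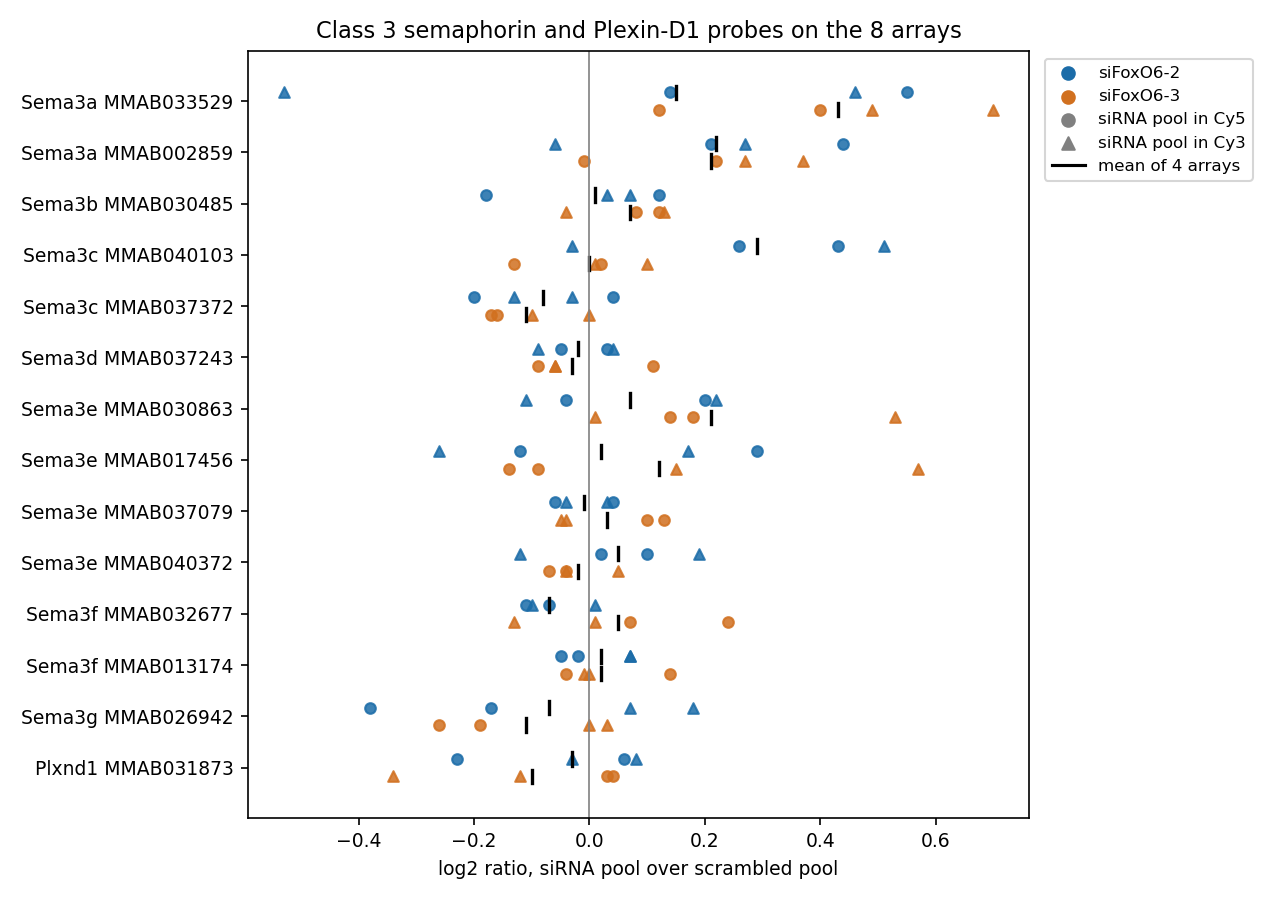
Log2 ratio of the siRNA pool over the scrambled pool (horizontal axis) for each of the 14 probes on each of the 8 arrays, coloured by siRNA, with circles for pools in Cy5, triangles for pools in Cy3 and bars for the mean of 4 arrays. The Sema3a probes lie mostly right of 0, with siFoxO6-2 replicate 3 at -0.53 and -0.06. The Sema3c probe MMAB040103 lies right of 0 on 3 arrays with each siRNA, further with siFoxO6-2.

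How bright these genes were sets how much each value can show. A channel was counted as above background where the spot was brighter than all but the top 2.5% of the 959 empty control spots, taken per channel and array. By this measure 5 of the 14 probes (35.7%) were above background in both channels on all 8 arrays, beside 52.2% of all probes. These were 1 probe each of Sema3a, Sema3c, Sema3e, Sema3g and Plxnd1. The single Sema3d probe was above background in neither channel on any array, and 2 of the 4 Sema3e probes, MMAB037079 and MMAB040372, were above it on 2 arrays in the siRNA channel and 1 array in the scrambled channel. Levels of different probes are not compared, since a probe's brightness depends on its sequence.

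Sema3a encodes the founding class 3 ligand, which repels cortical axons and attracts apical dendrites through neuropilin-1 and A plexins. Probe MMAB033529 gave log2 ratios of 0.46, 0.55, -0.53 and 0.14 on siFoxO6-2 replicates 1 to 4, and of 0.70, 0.12, 0.49 and 0.40 on siFoxO6-3 replicates 1 to 4. It was higher in the siRNA channel on 7 of 8 arrays, and siFoxO6-2 replicate 3 alone was lower. For siFoxO6-2 the mean was 0.15 ± 0.49 and for siFoxO6-3 it was 0.43 ± 0.24 (SD, n = 4 each). The siFoxO6-2 value was 0.00 without its replicate 2, 0.03 without replicate 1 and 0.42 without replicate 3. The fitted value with both siRNAs together was 0.29, with a 95% interval of 0.00 to 0.58 and an adjusted p of 0.186.

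The second Sema3a probe, MMAB002859, is dimmer, and its scrambled channel was above background on 6 of 8 arrays. Its log2 ratios were 0.27, 0.21, -0.06 and 0.44 on siFoxO6-2 replicates 1 to 4, and 0.27, 0.22, 0.37 and -0.01 on siFoxO6-3 replicates 1 to 4. It was higher on 6 of 8 arrays, and the exceptions were the pair of arrays that followed the others least. The means of 0.22 ± 0.21 and 0.21 ± 0.16 (SD, n = 4 each) were close, and the difference between the siRNAs had a 95% interval of -0.30 to 0.29. With both siRNAs together the fitted value was 0.21 (95% interval 0.07 to 0.36, adjusted p = 0.0675), which as a ratio is between 1.05-fold and 1.28-fold. Over the 8 arrays the log2 ratios of the Sema3a probes had a Pearson correlation of 0.48, a description over arrays that share the scrambled pool.

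Sema3c encodes a ligand for both neuropilins that acts as an attractant for cortical axons. Its probe MMAB040103 gave log2 ratios of 0.51, 0.26, -0.03 and 0.43 on siFoxO6-2 replicates 1 to 4, against 0.10, -0.13, 0.01 and 0.02 on the siFoxO6-3 replicates. The values were above 0 on 3 of 4 arrays with each siRNA. On siFoxO6-2 replicate 3 the value fell within the siFoxO6-3 range, so the groups overlapped. The means were 0.29 ± 0.24 with siFoxO6-2 and 0.00 ± 0.10 with siFoxO6-3 (SD, n = 4 each). With siFoxO6-2 the fitted value of 0.29 had an adjusted p of 0.091, the lowest among the 14 probes for that siRNA. The difference, siFoxO6-3 minus siFoxO6-2, was -0.29 (95% interval -0.58 to -0.01, adjusted p = 0.725). The other Sema3c probe, MMAB037372, pointed the other way, at -0.08 ± 0.11 with siFoxO6-2 and -0.11 ± 0.08 with siFoxO6-3, and was higher in the siRNA channel on 1 of 8 arrays. Over the 8 arrays the Sema3c probes had a correlation of 0.23, and with both siRNAs together their fitted values were 0.14 (adjusted p = 0.189) and -0.09 (adjusted p = 0.137).

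Sema3e and its receptor Plexin-D1 were both measured above background on all 8 arrays. The brighter Sema3e probe, MMAB030863, gave 0.22, -0.04, -0.11 and 0.20 on siFoxO6-2 replicates 1 to 4 and 0.01, 0.18, 0.53 and 0.14 on siFoxO6-3 replicates 1 to 4. It was higher on 6 of 8 arrays, and the highest value came from siFoxO6-3 replicate 3. Its means were 0.07 ± 0.17 and 0.21 ± 0.22 (SD, n = 4 each), and the fitted value with both siRNAs was 0.14 (95% interval -0.01 to 0.29, adjusted p = 0.217). The next Sema3e probe, MMAB017456, had means of 0.02 ± 0.25 and 0.12 ± 0.32 and had a correlation of 0.83 with the first over the 8 arrays. The other Sema3e probes, near background, both had a fitted value of 0.01. Of their correlations with the brighter pair, MMAB040372 gave -0.73 and -0.52 and MMAB037079 gave 0.01 and -0.35, and with each other they gave -0.13.

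The Plxnd1 probe gave -0.03, 0.06, 0.08 and -0.23 on siFoxO6-2 replicates 1 to 4 and -0.12, 0.04, -0.34 and 0.03 on siFoxO6-3 replicates 1 to 4. Values on either side of 0 occurred with both siRNAs, 4 arrays each way. The means were -0.03 ± 0.14 and -0.10 ± 0.18 (SD, n = 4 each), and the fitted value was -0.06 with an adjusted p of 0.527. The 95% interval of -0.19 to 0.06 corresponds to between 0.878-fold and 1.04-fold. For Sema3e and its receptor, neither siRNA gave a difference that passed the test.

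None of the remaining ligands passed the test. Sema3g, a ligand known from the blood vessel wall, was higher on 3 of 8 arrays, with means of -0.07 ± 0.25 and -0.11 ± 0.14 (SD, n = 4 each) and a fitted value of -0.09 (95% interval -0.17 to -0.01, adjusted p = 0.135). Its probe had a dye term of -0.16 in the fit, and the siRNA pools in Cy5 gave -0.38, -0.17, -0.26 and -0.19 while those in Cy3 gave 0.07, 0.18, 0.00 and 0.03. All Cy5 values of Sema3g lay below all of its Cy3 values. Sema3b, whose product acts through neuropilin-2, was at 0.01 ± 0.13 with siFoxO6-2 and 0.07 ± 0.08 with siFoxO6-3. Sema3f, the main neuropilin-2 ligand, had fitted values of -0.01 (95% interval -0.10 to 0.08) and 0.02 (95% interval -0.05 to 0.09) at its probes. The Sema3d probe gave no level above background, so its ratio of -0.02 says nothing about the gene.

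Calls of Sema3a and Sema3c depended on which arrays entered the fit. Without siFoxO6-2 replicate 3, 3 of the 14 probes passed with both siRNAs together, beside 19.7% of all probes under the same fit, so the count is near the share of all probes. They were both Sema3a probes, at 0.43 (95% interval 0.28 to 0.57, adjusted p = 0.00448) and 0.27 (95% interval 0.15 to 0.39, adjusted p = 0.0101), and the Sema3c probe MMAB040103, at 0.21 (95% interval 0.12 to 0.29, adjusted p = 0.00802). All 3 also passed with siFoxO6-2 alone, at 0.42, 0.33 and 0.42, beside 15.5% of all probes. With siFoxO6-3 the Sema3a probe MMAB033529 passed at 0.43 (adjusted p = 0.0376), beside 3.73% of all probes. No siFoxO6-3 array was left out in that fit, and the value was 0.43 with all 8 arrays too. Its SE fell from 0.17 to 0.08, because the siRNAs share an estimate of the spread. With each siRNA fitted alone, 0 of the 14 probes passed with siFoxO6-3, beside 0.488% of all probes. Without siFoxO6-2 replicate 3, the difference between the siRNAs at the Sema3c probe was -0.42 (95% interval -0.59 to -0.25), with an adjusted p of 0.084 over all probes.

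Leaving out siFoxO6-3 replicate 4 instead, the Sema3a probe MMAB002859 passed with both siRNAs together at 0.26 (adjusted p = 0.036) and the others did not, beside 12.2% of all probes. With both of these arrays left out, the same 3 probes passed, at 0.41, 0.30 and 0.19, beside 22.6% of all probes. That share too is near the count, and these are the arrays on which MMAB002859 was not higher. Leaving out any of the other 6 arrays let none of the 14 probes pass and gave values with both siRNAs of 0.21 to 0.35 for Sema3a MMAB033529, 0.17 to 0.22 for MMAB002859 and 0.10 to 0.17 for Sema3c MMAB040103. With siFoxO6-2 alone, MMAB002859 was 0.13 without replicate 4 and Sema3c MMAB040103 was 0.20 without replicate 1. The array siFoxO6-2 replicate 3 was the one on which Foxo6 was lowered least; the part of that in the Sema3a and Sema3c values was not tested.

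**Figure D2:**
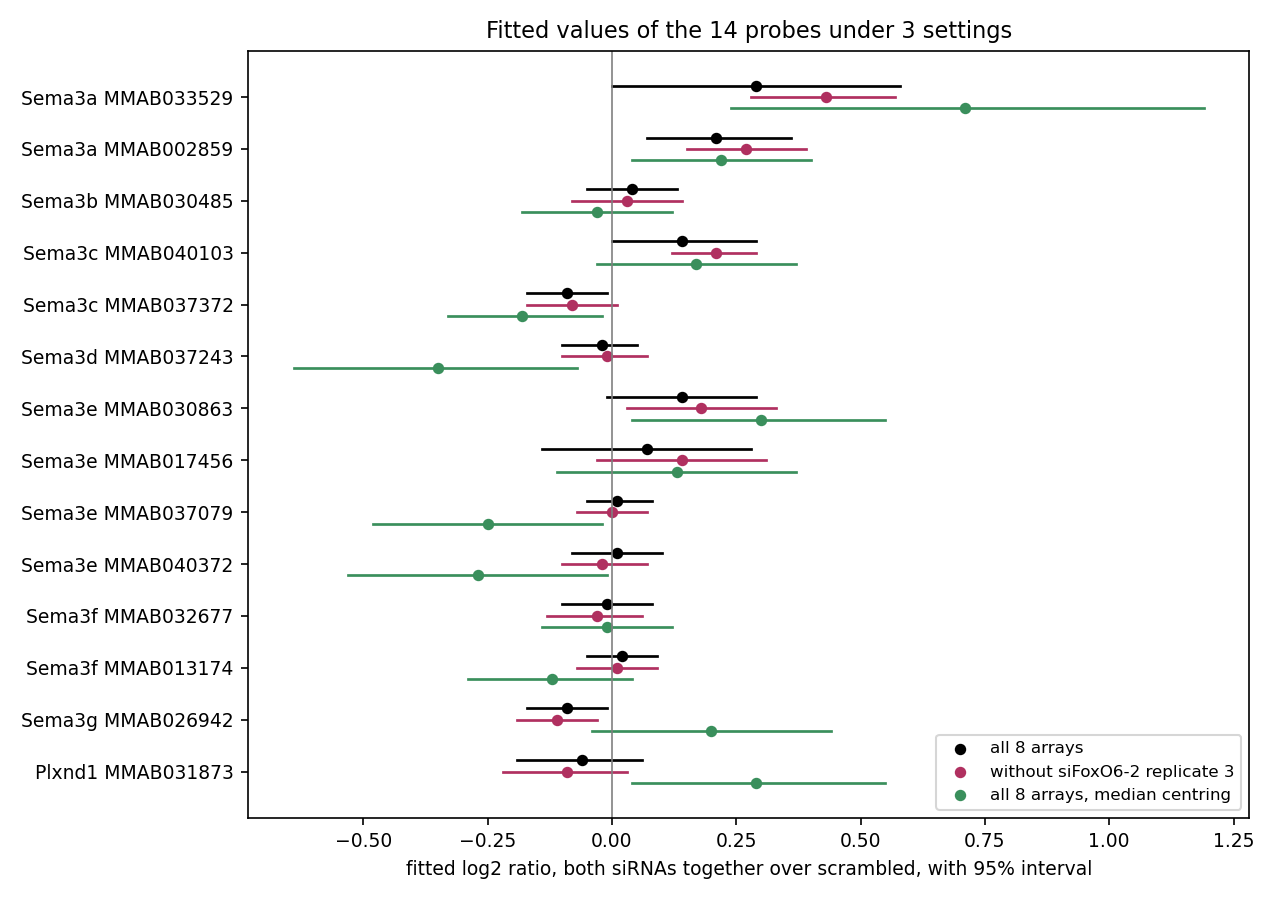
Fitted log2 ratio of both siRNAs together over scrambled with its 95% interval (horizontal axis) for the 14 probes, from all 8 arrays, from 7 arrays without siFoxO6-2 replicate 3, and from all 8 arrays with median centring in place of loess. The intervals of both Sema3a probes and of Sema3c MMAB040103 narrow and move away from 0 without that array, and Plxnd1 and Sema3g change sign under median centring.

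These ratios are relative to other probes of like brightness, and the intensities as deposited show how much that matters. At the Sema3a probe MMAB033529 the scrambled channel lay between 150 and 230 on the 8 arrays, while the siRNA channel was at 478 to 580 on 6 arrays and at 126 and 152 on siFoxO6-2 replicate 3 and siFoxO6-3 replicate 4. On siFoxO6-2 replicate 4 the log2 ratio was 1.86 before normalization and 0.14 after it. For Plxnd1 the siRNA channel exceeded the scrambled channel on 7 of 8 arrays before normalization, by up to 1.45, and the normalised values lie on both sides of 0. Foxo6 too was brighter in the siRNA channel on 3 arrays before normalization. With each array only centred on its median, which leaves the dependence on brightness in place, the fitted value with both siRNAs was 0.71 for Sema3a MMAB033529 (95% interval 0.24 to 1.19, adjusted p = 0.0744) and 0.22 for MMAB002859. Plxnd1 then turned to 0.29 and Sema3g to 0.20, and none of the 14 probes passed the test. With both siRNAs together, the Sema3a probes kept their direction under each of the other scalings tried, which were no background correction, plain subtraction, median centring and the deposited log2 table, and Plxnd1 and Sema3g did not.

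**Figure D3:**
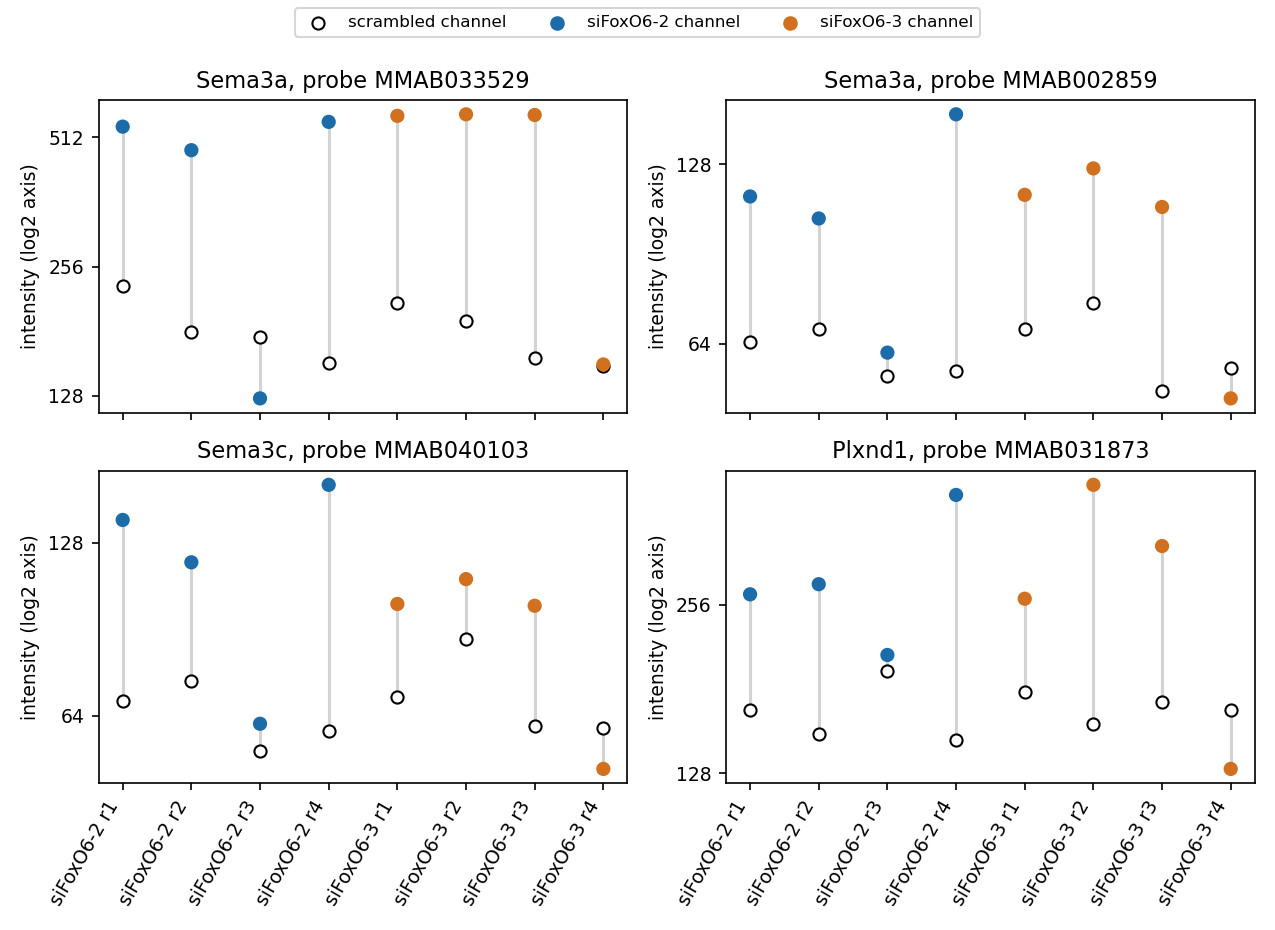
Mean spot intensity as deposited, without background correction (vertical log2 axis), of the siRNA channel (filled) and the scrambled channel (open) on each array for both Sema3a probes, Sema3c MMAB040103 and Plxnd1. On siFoxO6-2 replicate 3 and siFoxO6-3 replicate 4 the channels lie close together, and on the other 6 arrays the siRNA channel is the brighter one.

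Receptors, co-receptors and effectors of these ligands were looked at as a list of 48 genes, 47 of them measured, each by its brightest probe. None rose (2 at an unadjusted p under 0.05) and 12 fell (19 likewise) with both siRNAs together, where 7.29% of all 18322 genes with a symbol rose and 7.95% fell by the same rule. At an unadjusted p under 0.05, 26.2% of all probes passed in either direction. Of the 47, 44 were above background in both channels on all arrays, beside 52.2% of all probes. Among such probes, fitted without the dimmer ones, 22.1% passed, 51.5% of these being higher. The shares of all genes are therefore a low baseline for this list. The median of the list was -0.08. With siFoxO6-2 alone 10 fell, beside 5.41% of all genes, and with siFoxO6-3 alone 4 fell, beside 0.513%. Among probes above background in both channels on all arrays, 15.8% passed with siFoxO6-2 and 1.5% with siFoxO6-3. Of these, 51.1% and 43.3% were higher. Without siFoxO6-2 replicate 3, 2 rose and 16 fell with both siRNAs together, beside 13.5% and 11.4% of all genes.

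The 6 genes of the list with the smallest p were all lower. Plxna4, the A-type plexin of the study's title, was at -1.05 at its brightest probe (adjusted p = 0.00161), while its other probes were at -0.07 and -0.02. Ssh1, a phosphatase that activates cofilin, was at -0.62 (adjusted p = 0.00133), with other probes at 0.01 and -0.12. Dpysl3, Crmp1 and Dpysl4 encode collapsin response mediator proteins, cytosolic relays of Sema3a signalling, and were at -0.61, -0.61 and -0.31. Farp1, a member of the family of exchange factors that bind A plexins, was at -0.45, with a second probe at -0.42 and the remaining, dim probe at 0.01. Nrp1, the co-receptor for Sema3a, was chosen after its value was seen and was at -0.57 (adjusted p = 0.00625). Only its brightest probe was looked at, and Nrp2, the other neuropilin, was at 0.05 (adjusted p = 0.664). Under median centring the list's median turned to 0.22, none of its genes passed, Plxna4 was at -0.49, Ssh1 at -0.12, Dpysl3 at -0.07 and Nrp1 at -0.10, and Farp1, Crmp1 and Dpysl4 turned to 0.12, 0.24 and 0.22.

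**Figure D4:**
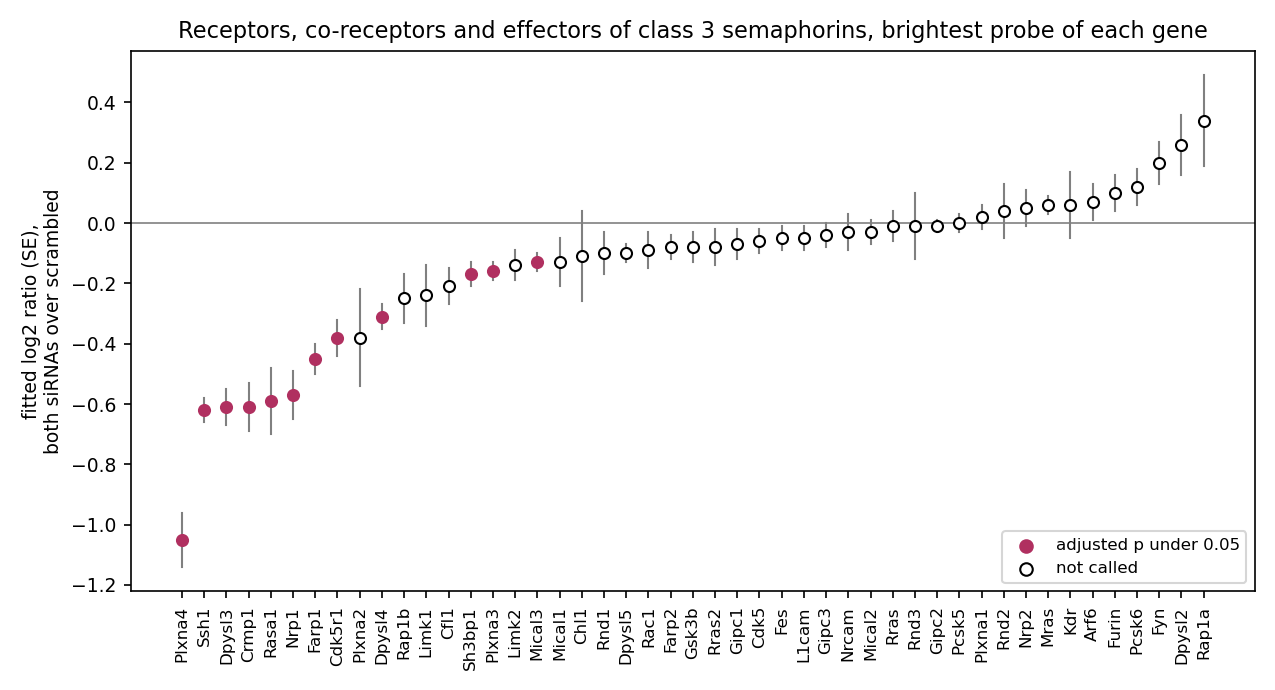
Fitted log2 ratio with its SE (vertical axis) of both siRNAs together over scrambled for the 47 measured receptors, co-receptors and effectors of class 3 semaphorins, ordered by value, with filled points for the 12 genes with an adjusted p under 0.05. All 12 lie below 0, and Plxna4 is the lowest at -1.05.

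Because Plxnd1 and Sema3g are also known from endothelium, markers of other cells in the sorted pools were set beside them. In bulk pools, fewer cells of a type and less RNA per cell cannot be told apart. Of 12 endothelial markers, 8 were above background in both channels on all arrays, 1 rose (Cldn5, 0.32, adjusted p = 0.0448) and none fell. At an unadjusted p under 0.05, 2 endothelial markers were higher and none lower. Before normalization, the summed endothelial intensity ranged from 868 to 2160 in the siRNA channel and from 933 to 1127 in the scrambled channel. The sum of the projection neuron markers ranged from 3913 to 32380 and from 4940 to 11140. A brighter siRNA channel was thus not particular to endothelium. Tie1 was the dimmest endothelial marker, above background on 4 and 2 arrays. None of 7 pericyte markers passed, and 2 were higher at an unadjusted p under 0.05. With siFoxO6-2 alone 1 endothelial and 1 pericyte marker rose, and with siFoxO6-3 alone none did. Of 8 microglial markers 4 rose, with a list median of 0.14, and the counts were 4 with siFoxO6-2 alone and 0 with siFoxO6-3 alone. Of all genes, 7.29% rose with both siRNAs, 4.69% with siFoxO6-2 and 0.475% with siFoxO6-3, so a count of 0 with siFoxO6-3 is near the share of all genes. Sema3c MMAB040103 likewise had its higher values with siFoxO6-2; the part of non-neuronal cells in that was not tested. Of 8 markers of cortical projection neurons, 7 were above background on all arrays and 1 fell, with 1 higher and 1 lower at an unadjusted p under 0.05. Of 7 progenitor markers all were above background and 3 fell (Hes5 at -0.90, Nes at -0.50 and Eomes at -0.10). At an unadjusted p under 0.05 those 3 were lower and 2 were higher (Fabp7 at 0.57 and Sox2 at 0.32). The interneuron, meningeal fibroblast, Cajal-Retzius, subplate and erythroid lists each had at most 1 marker risen and at most 1 fallen. Of all genes, 7.95% fell with both siRNAs. Among probes above background in both channels on all arrays, 22.1% passed in either direction. The shares of all genes are therefore a low baseline for bright markers too. The marker lists were not refitted under median centring, where 506 of all probes passed, 93.9% of them higher.

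The genes whose dye-corrected log2 ratios over the 8 arrays followed each of these genes most closely were taken from 18539 bright probes of other genes. For Sema3a MMAB033529 they were Prei4, Pclo and Prkdc, with Pearson correlations of 0.990, 0.989 and 0.984. For Sema3c MMAB040103 they were Pkib, Xlr3c and Fat3, at 0.990, 0.984 and 0.983. Sema3e MMAB030863 was followed by Pabpc6, Cand1 and Nr2c1 at 0.978, 0.976 and 0.968, and Sema3g by Psmg4, Nkain4 and Nek6 at 0.973, 0.970 and 0.968. For Plxnd1 they were Il13, Ifnab and Rusc1 at 0.986, 0.983 and 0.979. No class 3 semaphorin, neuropilin or plexin was among these, which says little, since only 3 probes were kept for each gene. All points share the scrambled pool. The correlations are the highest among 18539 probes over only 8 arrays, and such a choice by itself gives high values.

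The RefSeq table of the mouse assembly GRCm38.p6 places Sema3d, Sema3a, Sema3e and Sema3c in this order on chromosome 5, Sema3b and Sema3f on chromosome 9, Sema3g on chromosome 14 and Plxnd1 on chromosome 6. Promoter sequences (250 bases before the start of the gene to 50 after it) were available for 6 of the 8 genes, all but Sema3b and Sema3f. The promoters of Sema3a and Sema3c are shown because these genes had the largest values with siFoxO6-2, and because FoxO factors are known to bind forkhead motifs. Matches to the core AAACA or its complement TGTTT are in capitals. The promoter window of Sema3a is chr5:13396534-13396833 on the plus strand and that of Sema3c is chr5:17574566-17574865 on the plus strand, both in GRCm38.p6.
Sema3a: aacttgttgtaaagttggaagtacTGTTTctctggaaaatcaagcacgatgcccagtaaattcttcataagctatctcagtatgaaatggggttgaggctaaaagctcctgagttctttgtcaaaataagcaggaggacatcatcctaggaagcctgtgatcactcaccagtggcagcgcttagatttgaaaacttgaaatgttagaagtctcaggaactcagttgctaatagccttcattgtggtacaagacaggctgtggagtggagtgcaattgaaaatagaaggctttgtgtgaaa
Sema3c: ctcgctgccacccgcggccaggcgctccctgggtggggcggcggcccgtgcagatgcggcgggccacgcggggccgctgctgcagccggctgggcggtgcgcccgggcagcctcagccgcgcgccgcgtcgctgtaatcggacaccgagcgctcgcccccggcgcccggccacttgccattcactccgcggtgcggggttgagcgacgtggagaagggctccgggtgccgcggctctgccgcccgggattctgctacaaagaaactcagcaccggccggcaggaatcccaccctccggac
The longer FoxO motif GTAAACA, searched on both strands, was in 0 of the 6 promoters and in 3.65% of all 32851 promoters available. The core AAACA, which the longer motif contains, was in 4 of the 6, those of Sema3a, Sema3d, Sema3e and Plxnd1, and in 50.5% of all promoters. Sema3a held it once, starting 226 bases before the gene, and Sema3c, whose promoter is 75.7% G and C against 41.3% in Sema3a, did not hold it in this window. These matches are letters in a window and were not tested for binding.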

How the data were processed

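Spot intensity per channel was deposited for 8 two-colour arrays, as the mean and the median of each spot beside its local background, uncorrected per the file headers. The authors also deposited a log2 table of siRNA over scrambled, whose method is not given in the sources used here and whose columns correlated with the values used here at 0.85 to 0.97; its scale is log2, its medians were near 0, and it served as an alternative. The labels do not state the sorting gate. Of 45220 spots, 41174 were gene probes and 4046 were controls.

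Mean intensities were background-corrected (normexp, offset 50) and normalised by loess within each array in limma 3.58.1 under R 4.3.3, with control spots at weight 0. Each probe was fitted with a coefficient for each siRNA, whose sign followed the dye, and a dye constant, which left 5 residual degrees of freedom; log2 ratios were tested in 4 comparisons, two-sided, with p-values adjusted over all gene probes. The fit was tested on simulated data with planted changes in independent noise. That noise held no deviation of the scrambled pool, of single arrays or with brightness, so these limits were not tested. Probes were named through the platform annotation, in which 34186 probes had 1 symbol, none had several and 6988 had none. The number of arrays limits the precision.

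The genes and lists were chosen with earlier results of these data known. By the naming rule every probe of the 8 genes is accounted for, with at most 6 genes of the signalling list and the 3 most alike probes per gene. Nrp1 was added to the named genes after its value was seen, and Nrp2 beside it. Alternatives changed the background correction, the normalization, the probe filter, the dye term, the value table, the variance model, the array weights and the arrays included.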

Additional observations from a re-analysis of the deposited data

Results flagged for a closer look

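Of 28 groups of 4 arrays (14 probes with each siRNA), 1 held a value far from the rest by Dixon's test, and chance flags about 1 in 20 such groups. This was the Sema3d probe MMAB037243 on siFoxO6-3 replicate 4, with a log2 ratio of 0.11 against -0.09 to -0.06 on the other siFoxO6-3 arrays. The gap was 0.851 of the group's range, above the 95% critical value. The probe was above background in neither channel on any array.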

How the results depend on the processing

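Counts of probes that passed, reported as 0 of 14, moved in 12 of 89 recalculations. With both siRNAs together 1 probe, the Sema3a probe MMAB002859, passed with no background correction (0.25), no dye term (0.21), the deposited log2 table (0.28) or without siFoxO6-3 replicate 4 (0.26). Of all probes, 11.8%, 11.9%, 12.7% and 12.2% passed under these settings, so 1 of 14 is not above those shares. Array weights let 4 pass, both Sema3a probes, Sema3c MMAB040103 and Sema3g (-0.11), beside 20.8% of all probes, and 2 with siFoxO6-2, beside 20.6%. Leaving out each array in turn gave 0 to 3 probes with both siRNAs, 0 to 3 with siFoxO6-2 and 0 to 1 with siFoxO6-3. Without both siFoxO6-2 replicate 3 and siFoxO6-3 replicate 4, chosen after seeing the data, the counts were 3, 3 and 1. The shares of all probes were then 22.6%, 17.6% and 5.45%. The cause was not tested. The counts over all probes with both siRNAs, 4879 as reported, fell to 2906 with plain subtraction, and to 506 with median centring (93.9% of them higher, against 51.6%), and rose to 8573 with array weights. Leaving out each array in turn gave 2103 to 8127 calls with both siRNAs, 456 to 6382 with siFoxO6-2, 0 to 1534 with siFoxO6-3 and 0 to 5 for the difference. With the scrambled pool given the spread of an siRNA pool, 0 of 41174 passed (908 at an unadjusted p under 0.05), and the Sema3a intervals widened to -0.57 to 1.16 and -0.22 to 0.65. The replicate block left 0 of 14 probes and gave 5170 calls; same-numbered pools correlated at 0.36, -0.18, -0.29 and -0.53, so the numbers were not taken to pair pools. Aquantile scaling leaves log2 ratios as they are by construction. A slide or scan block was not run, as the files used here name neither.

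Of the probe values, 716 recalculations kept direction and side of the threshold, 24 passed it and 49 changed sign. The probe filter, the variance model, Aquantile scaling and the spread given to the scrambled pool refit the same log2 ratios. Direction could not change under these settings, so the 716 overstate how stable the values are. Values below are for both siRNAs, siFoxO6-2 and siFoxO6-3 unless named. Median centring turned Plxnd1 to 0.29, 0.34 and 0.25, Sema3g to 0.20 each, Sema3f MMAB013174 to -0.12, -0.16 and -0.08, and Sema3b to -0.03 and, with siFoxO6-2, -0.07. With array weights Sema3b was -0.01 for siFoxO6-2. Plain subtraction gave 0.01 for Sema3c MMAB040103 with siFoxO6-3 and -0.16 for Sema3e MMAB017456 with siFoxO6-2, and no background correction gave Sema3f MMAB013174 0.00 and, with siFoxO6-2, -0.01. In the deposited table Sema3c MMAB040103 was 0.01 with siFoxO6-3, Sema3f MMAB032677 was 0.03 and Sema3f MMAB013174 was -0.01 with siFoxO6-2. As the mean of a gene's probes, Sema3c MMAB037372 turned to 0.03 and, with siFoxO6-2, 0.11, Sema3f MMAB032677 to 0.00 and Sema3f MMAB013174 with siFoxO6-2 to -0.03. For siFoxO6-3 minus siFoxO6-2, Sema3a MMAB002859 was 0.01 with plain subtraction and 0.13 as the mean of probes.

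Leaving out arrays, 1 at a time or the pair named above, gave values on both sides of 0 in these ranges. With siFoxO6-2 they were -0.09 to 0.07 for Plxnd1, -0.04 to 0.08 for Sema3b, -0.12 to 0.17 for Sema3e MMAB017456 and -0.01 to 0.04 for Sema3f MMAB013174. With siFoxO6-3 they were -0.04 to 0.05 for Sema3c MMAB040103, -0.02 to 0.19 for Sema3e MMAB017456, -0.03 to 0.05 for Sema3f MMAB013174 and -0.01 to 0.10 for Sema3f MMAB032677. With both siRNAs they were 0.00 to 0.15 for Sema3e MMAB017456, -0.01 to 0.03 for Sema3f MMAB013174 and -0.06 to 0.02 for Sema3f MMAB032677. For the difference they were -0.04 to 0.43 and -0.11 to 0.09 for the Sema3a probes and -0.06 to 0.03 for Sema3c MMAB037372. Dim probes limit Sema3b, Sema3d, Sema3f and 2 of the 4 Sema3e probes.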
